A study of Mus musculus with 6 samples.

Results

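The interferon-induced transmembrane (IFITM) genes of 4T1 cells were examined in libraries with and without forced expression of Limch1. The family was taken as 6 mouse genes, Ifitm1, Ifitm2, Ifitm3, Ifitm5, Ifitm6 and Ifitm10, matched by gene identifier and symbol among the 26094 genes analysed. 4T1 is a mouse mammary carcinoma cell line that grows and spreads in mice much as late-stage breast cancer does. In 3 libraries the cells had been infected with a lentiviral pLVX-IRES-neo vector carrying mouse Limch1 (Limch1_OE), and in 3 libraries with the empty vector (Vector). Both groups were cells selected with antibiotic from 48 h after infection and grown in medium with 10% fetal bovine serum. The labels name no clone, and whether replicate libraries stem from separate cultures or infections is not given in them. A p-value here therefore judges the difference between the groups by the spread among libraries, which can be technical variation alone. The question was which messenger RNAs change when the cells express Limch1. Values are FPKM, fragment counts scaled by the authors for transcript length and library size, added up over a gene's listed transcripts.

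IFITM proteins are short membrane proteins with a CD225 domain that are anchored by palmitoylated cysteines. IFITM3 sits mainly in late endosomes and lysosomes and blocks the fusion of influenza virus and other enveloped viruses with the endosomal membrane. IFITM2 is also endosomal, whereas IFITM1 is found more at the cell surface. Interferons induce the genes of these antiviral members through STAT-containing complexes and interferon regulatory factors that bind the interferon-stimulated response element (ISRE). Ifitm5 is known as a gene of bone-forming osteoblasts, Ifitm6 has been described in mouse myeloid cells, and Ifitm10 is little studied.

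By the transcripts analysed, Ifitm3 was the most abundant member in every library and was 4.07-fold lower in Limch1_OE as a ratio of mean FPKM. Ifitm2, its close relative in the same cluster and on the same strand, was 1.17-fold lower. Of the 6 members these 2 could be tested and both were called lower, as were 14.4% of all tested genes, but the Ifitm2 call ended under 8 of 14 alternatives. Ifitm1, Ifitm5, Ifitm6 and Ifitm10 were below 1 FPKM in each of the 6 libraries. For Ifitm1 only 1 of 3 annotated transcripts was analysed, so the member order, family sum and member shares leave out the rest. The summed level of the family was 252 ± 14.3 FPKM in Limch1_OE, against 796 ± 33.7 FPKM in Vector (SD, n = 3 each).

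The start regions of the expressed members, Ifitm3 and Ifitm2, are shown because the ISRE is the known route of interferon induction. Windows of 300 bases, 250 before and 50 after each RefSeq start (GRCm38.p6, the assembly of mm10), were available for all 6 genes. The part of each window before the gene's GENCODE start comes first, on the minus strand and written 5′ to 3′, at chr7:141010771-141010994 for Ifitm3 and chr7:140955988-140956211 for Ifitm2. Capitals mark matches to the ISRE core, which is GAAA, any 2 bases, then GAAA.
Ifitm3: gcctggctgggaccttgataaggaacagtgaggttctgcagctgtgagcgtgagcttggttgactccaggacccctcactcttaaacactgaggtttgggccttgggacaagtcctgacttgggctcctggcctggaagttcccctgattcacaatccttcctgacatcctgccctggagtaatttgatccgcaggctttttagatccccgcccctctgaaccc
Ifitm2: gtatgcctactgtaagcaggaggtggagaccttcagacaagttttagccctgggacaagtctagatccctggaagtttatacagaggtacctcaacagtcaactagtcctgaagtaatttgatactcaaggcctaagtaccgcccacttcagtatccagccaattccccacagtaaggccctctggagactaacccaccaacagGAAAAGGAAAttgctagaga

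A stretch of 30 bases then follows from each gene, chr7:141010714-141010743 for Ifitm3 and chr7:140955979-140956008 for Ifitm2, with the same meaning of capitals. The Ifitm3 stretch lies in the first annotated exon. The Ifitm2 stretch straddles the GENCODE start, and its match is the one already visible above.
Ifitm3 site: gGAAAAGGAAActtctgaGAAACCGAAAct
Ifitm2 site: gGAAAAGGAAAttgctagagaaagggcggg

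Both genes held GAAAAGGAAA, at bases 2 to 11 counted from the RefSeq start as base 0 in Ifitm3 and at bases -46 to -37 in Ifitm2. Ifitm3 held a further match, GAAACCGAAA, at bases 19 to 28. On either strand, 3.443% of all 32851 promoter windows held the core at least once and 0.225% held it at least 2 times. A longer core, the same letters followed by CT, was present at both Ifitm3 positions and absent from the Ifitm2 window, against 0.271% of all windows with at least 1 match. The gamma-activated core TTCNNNGAA, found in 8.298% of windows, matched in Ifitm3 at bases 13 to 21, where it overlaps the longer core at each end, and in Ifitm6. The windows of Ifitm1, Ifitm5 and Ifitm10 held none of these cores, and that of Ifitm6 no ISRE core. The 30-base stretches were identical at 21 of 29 aligned bases and the upstream stretches at 119 of 201. A match describes letters only, and the binding of any factor was not measured. Whether the matches bear on the unequal changes of Ifitm3 and Ifitm2 was not tested.

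Limch1 itself, the targeted gene, was at 23.96, 23.31 and 25.69 FPKM in Limch1_OE replicates 1 to 3, against 0.25, 0.15 and 0.1 FPKM in Vector replicates 1 to 3, as the labels say. The FPKM sums of the libraries were 421767 to 425064 in Limch1_OE and 414837 to 416242 in Vector. The sequencing depth is unknown, so precision is given as the SD of 3 libraries. In a principal component analysis of the tested genes, the first component (74.8% of the variance) separated the groups and the second (8.98%) set Limch1_OE replicate 1 apart. The epithelial markers Epcam, Krt8, Krt18, Cdh1, Krt7, Krt19 and Cldn7 all passed the filter and summed to 1460 to 1613 FPKM in Limch1_OE, against 1498 to 1568 FPKM in Vector. Epcam, Cdh1 and Cldn7 fell and Krt7 rose, the Cdh1 call ending without Vector replicate 3. The Krt7 call ended with only the most abundant transcript per gene. The 4 analysed of 7 leukocyte markers summed to 0.09 to 0.17 FPKM in Limch1_OE and 0.14 to 0.4 FPKM in Vector. The 1 analysed of 6 markers of neutrophils and their precursors was at 0 to 0.16 FPKM in both groups. The 4 analysed of 5 fibroblast markers summed to at most 0.1 FPKM in Limch1_OE and 0.07 FPKM in Vector, and the 4 endothelial markers to at most 0.32 FPKM in Limch1_OE and 0.43 FPKM in Vector. Of the 2 analysed among 6 osteoblast markers, Dmp1 reached at most 0.08 FPKM, while Runx2, which other cells also express, averaged 12.1 FPKM in Limch1_OE and 7.94 FPKM in Vector. No analysed marker of these lists was at 0 in all 6 libraries.

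Ifitm3 (ENSMUSG00000025492, mm10 chromosome 7, 141009586 to 141010770, minus strand, 2 exons, 1 annotated transcript) restricts virus entry from endosomes. It was at 160.14, 180.18 and 179.23 FPKM in Limch1_OE replicates 1 to 3, against 682.66, 689.45 and 740.27 FPKM in Vector replicates 1 to 3. Every Limch1_OE library lay far below every Vector library, and the gap between the groups was many times the spread within either. The means were 173 ± 11.3 FPKM in Limch1_OE, against 704 ± 31.5 FPKM in Vector (SD, n = 3 each). On the log2(FPKM + 1) scale the change was -2.02 (SE 0.06, 95% confidence interval -2.16 to -1.88, limma adjusted p = 3.8e-08). By exact permutation of the libraries, two-sided, p was 0.1, which is the lowest value possible with 3 per group. Since these are bulk libraries, fewer cells with Ifitm3 mRNA and less of it per cell cannot be told apart.

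Ifitm3 remained an abundant mRNA in Limch1_OE. By FPKM it ranked between 303 and 334 from the top of the 11842 tested genes in Limch1_OE and between 62 and 69 in Vector. Over all tested genes 1706 were called lower and 2388, or 20.2%, higher at a limma adjusted p under 0.05. Lower genes made up 41.7% of these calls, against 57.7% with TMM scaling and 50.1% with only the most abundant transcript per gene. A called decrease at least as large as that of Ifitm3 was seen in 72 genes, counting Ifitm3 itself, or 0.608% of those tested. On the log2(FPKM + 1) scale a gene near 1 FPKM in Vector cannot fall that far, so this share undercounts low genes. The direction and the call of Ifitm3 held under all 14 alternatives run.

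Ifitm2 (ENSMUSG00000060591, mm10 chromosome 7, 140954837 to 140955987, minus strand, 2 exons, 1 annotated transcript), the other endosomal antiviral member, was at 74.89, 79.72 and 80.84 FPKM in Limch1_OE replicates 1 to 3. In Vector replicates 1 to 3 it was at 83.84, 98.04 and 92.68 FPKM. The Limch1_OE libraries were all below the Vector libraries, but Limch1_OE replicate 3 and Vector replicate 1 nearly met. Groups without overlap were common, with 20.5% of tested genes lower in this way and 49.1% apart in either direction. The means were 78.5 ± 3.16 FPKM in Limch1_OE, against 91.5 ± 7.17 FPKM in Vector (SD, n = 3 each). The log2 change was -0.22 (SE 0.06, 95% confidence interval -0.36 to -0.07, limma adjusted p = 0.028). This call did not hold without Limch1_OE replicate 1 (limma adjusted p = 0.0704), Limch1_OE replicate 2 (0.0621), Vector replicate 2 (0.0962) or Vector replicate 3 (0.0788). It also ended with quantile normalization (0.0532), without the intensity trend (0.0544), without a filter on low values (0.0856), and with only the most abundant transcript per gene (0.0828). It held in the other alternatives, among them TMM scaling (-0.28, limma adjusted p = 0.0108).

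Part of the Ifitm2 signal is shared by annotation. Gm45717, a read-through gene on the same strand (chromosome 7, 140949222 to 140955937), uses the first exon of Ifitm2, up to its end at 140955670, and then splices into the Ifitm5 locus. Of the 75-base windows of the Ifitm2 transcript, 33.39% occur unchanged in the Gm45717 transcript, so the authors' values for them depend on how reads were divided. Smaller shares occur in Gm8865 (8.61%), Gm11951 (6.88%), Gm45308 (1.72%) and Gm2840 (1.55%). Gm8865 and Gm11951 reached at most 0.17 and 0.27 FPKM, and Gm45308 and Gm2840 were not listed. The read-through gene was listed at 33.37, 36.38 and 39.1 FPKM in Limch1_OE and at 41.07, 44.09 and 40.86 FPKM in Vector. Its log2 change was -0.21 (SE 0.06, limma adjusted p = 0.0354), close in size to that of Ifitm2, and this call ended under 9 of 14 alternatives, among them leaving out any single library except Limch1_OE replicate 3. The FPKM ratio of Gm45717 to Ifitm2 was 0.462 ± 0.0196 in Limch1_OE, against 0.460 ± 0.0261 in Vector (SD, n = 3 each; exact permutation p = 0.9). With both genes added together, an alternative chosen after their values were seen, the log2 change was -0.22 (limma adjusted p = 0.0244). No 75-base window of Ifitm3 occurs in the Ifitm2 transcript or the reverse, although their coding sequences were 80.8% identical over 411 aligned bases. Ifitm3 shared 0.66% of its windows with a single other gene, Gm7676.

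**Figure D1:**
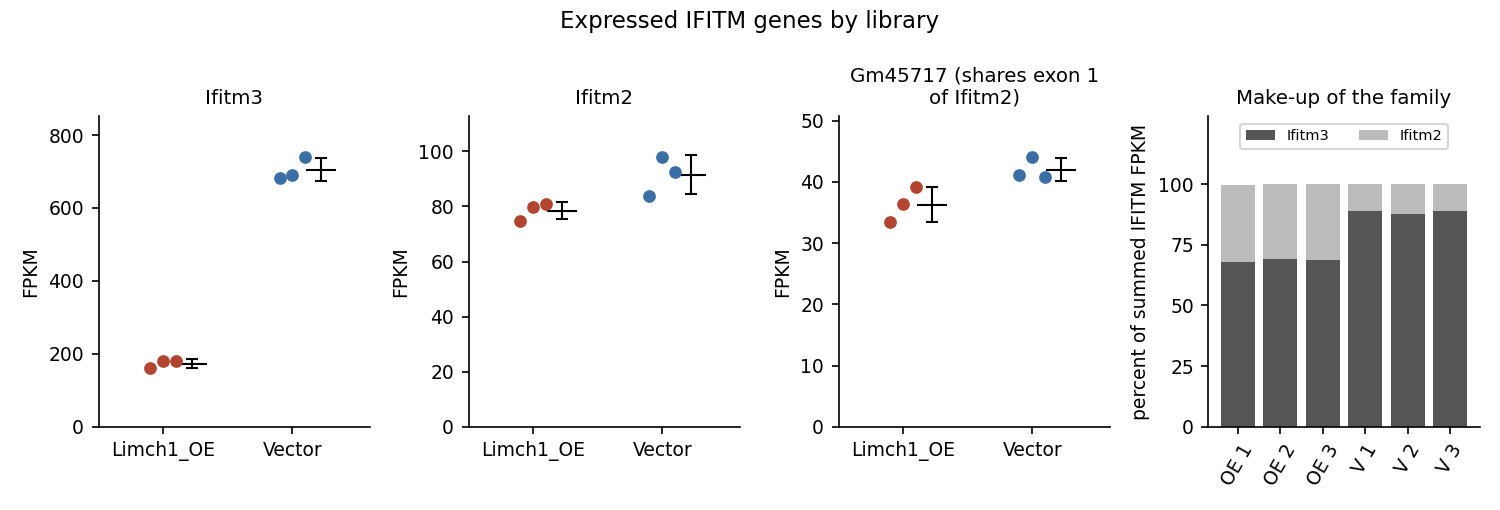
FPKM of Ifitm3, Ifitm2 and the read-through gene Gm45717 in each library (points, replicates 1 to 3 from left to right), with mean and SD in black, and the percent of the summed IFITM FPKM held by Ifitm3 and Ifitm2 in each library (OE, Limch1_OE; V, Vector). Ifitm3 lies at 160.14 to 180.18 FPKM in Limch1_OE, against 682.66 to 740.27 FPKM in Vector, while Ifitm2 lies at 74.89 to 80.84 FPKM in Limch1_OE, against 83.84 to 98.04 FPKM in Vector.

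The members thus moved by unequal amounts, and the make-up of the family differed. Ifitm3 held 68.04, 69.27 and 68.89% of the summed IFITM FPKM in Limch1_OE and 88.97, 87.53 and 88.86% in Vector. Ifitm2 held 31.82, 30.65 and 31.07% in Limch1_OE and 10.93, 12.45 and 11.13% in Vector. The shares did not overlap between groups for either gene (exact permutation p = 0.1 each, 0.2 after Benjamini-Hochberg adjustment over 6 members). Ifitm3 and Ifitm2 make up nearly the whole sum, so their shares mirror each other and give a single result. The share of Ifitm5, a gene at no more than 0.1 FPKM, gave the same exact permutation p and adjusted value. Of Ifitm1, the shares count only the transcript analysed. The FPKM ratio of Ifitm3 to Ifitm2 was 2.21 ± 0.0618 in Limch1_OE, against 7.72 ± 0.601 in Vector (SD, n = 3 each). Within libraries, the log2(FPKM + 1) difference of Ifitm3 over Ifitm2 averaged 1.13 in Limch1_OE and 2.93 in Vector, which sets their fold changes -1.80 apart. This was the only pair of tested members, and its exact permutation p was 0.1. For the summed family level the exact permutation p was also 0.1.

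**Figure D2:**
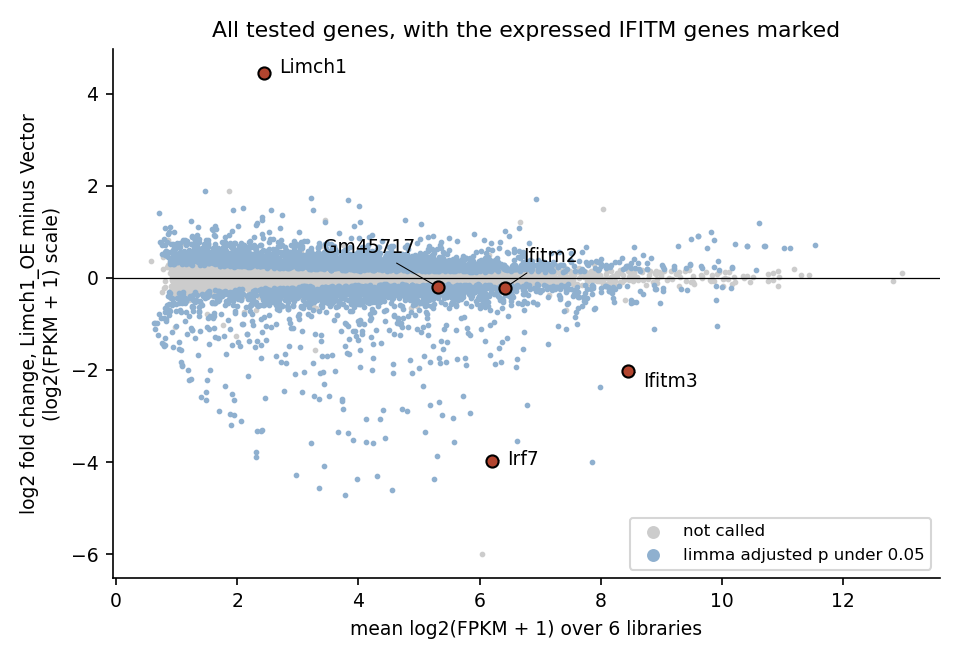
Log2 fold change (Limch1_OE minus Vector, log2(FPKM + 1) scale) against mean log2(FPKM + 1) for the 11842 tested genes, one point each, with Ifitm3, Ifitm2, Gm45717, Irf7 and Limch1 marked in red. Ifitm3 stands at -2.02, apart from most genes of its abundance, and Ifitm2 at -0.22 lies within the band formed by most genes.

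Ifitm1 (ENSMUSG00000025491, chromosome 7, 140967221 to 140969825, plus strand), the member found more at the cell surface, lies between Ifitm2 and Ifitm3. Only 1 of its 3 annotated transcripts was analysed here, so its values describe that transcript rather than the gene. That transcript was listed at 0.1, 0 and 0 FPKM in Limch1_OE and at 0.13, 0.09 and 0 FPKM in Vector. The groups overlapped at a level near 0. Ifitm6 (ENSMUSG00000059108, chromosome 7, 141015699 to 141017924, minus strand) was listed at 0, 0.05 and 0 FPKM in Limch1_OE and at 0.67, 0.06 and 0 FPKM in Vector. A single library, Vector replicate 1, held nearly all of its signal, with 0.6 FPKM on 1 of its 3 transcripts. In that library the 4 analysed leukocyte markers summed to 0.14 FPKM, and the source of the Ifitm6 signal was not tested.

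Ifitm5 (ENSMUSG00000025489, chromosome 7, 140948958 to 140950291, minus strand), the osteoblast member, was listed at 0.05, 0.07 and 0.1 FPKM in Limch1_OE and at 0, 0 and 0.1 FPKM in Vector. Exon 2 of Gm45717 (140949222 to 140949448) lies within the Ifitm5 span, so these values too can depend on how reads were divided. Ifitm10 (ENSMUSG00000045777, chromosome 7, 142325837 to 142373753, minus strand) lies 1308 kb from the cluster of the 5 other members. It was listed at 0.17, 0.1 and 0 FPKM in Limch1_OE and at 0.02, 0.02 and 0.01 FPKM in Vector, from 3 of 6 annotated transcripts. In Limch1_OE each of its nonzero values came from a different transcript. None of these 4 genes reached the filter of at least 1 FPKM in at least 3 libraries. With no filter, limma called none of them, with adjusted p between 0.348 and 0.616 and unadjusted p between 0.127 and 0.384.

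**Figure D3:**
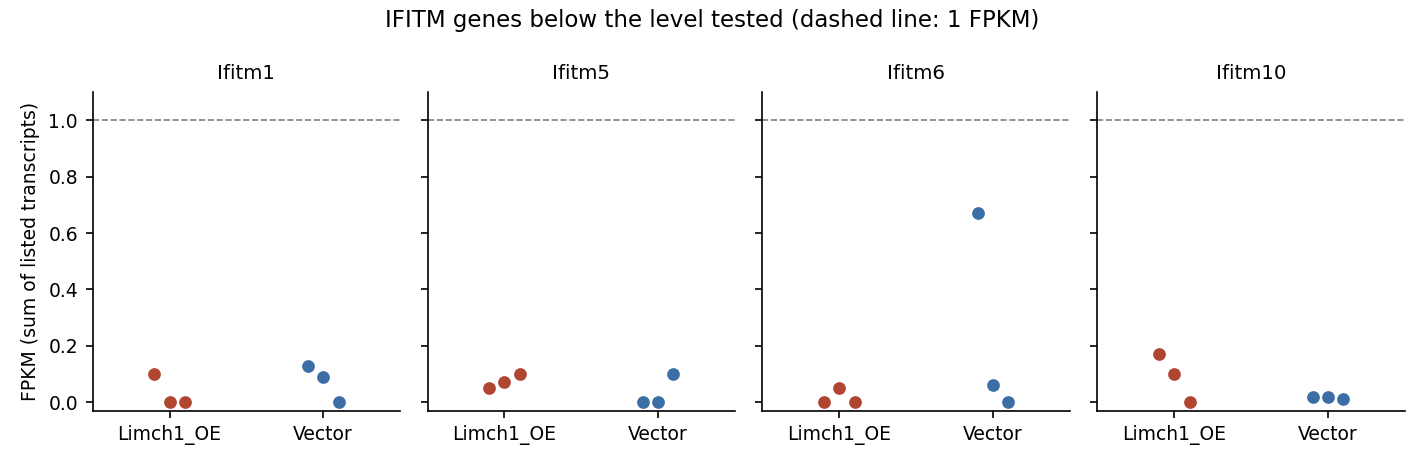
FPKM of Ifitm1, Ifitm5, Ifitm6 and Ifitm10 in each library (points, replicates 1 to 3 from left to right), with the dashed line at 1 FPKM. All values lie below the line, and the highest, 0.67 FPKM, is Ifitm6 in Vector replicate 1.

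The genes around the cluster moved in both directions, and apart from Irf7 by much less than Ifitm3. The 28 other protein-coding genes within 250 kb of the 5 clustered members included 19 that were tested, of which 5 fell, 6 rose and 8 were not called. Among the 5 is Gm45717, which shares the first exon of Ifitm2 and kept its call under 5 of 14 alternatives. The share called, 11 of 19, compares with 34.6% of all tested genes, and the median log2 change was 0.10 against 0.04 over all tested genes. With TMM scaling 2 neighbours, not 6, were called higher. The uricase-pathway gene Urah changed by -0.37, the proteasome subunit gene Psmd13 by -0.32 and the Ras-association gene Rassf7 by -0.23. The glycosyltransferase gene B4galnt4 rose by 0.31 and the ribonuclease inhibitor gene Rnh1 by 0.25. Zfp941 (0.32), Bet1l (0.27), Lmntd2 (0.26) and Phrf1 (0.20) were also higher. Zfp941 and Lmntd2 kept the call under 3 of 13 alternatives, Bet1l under 5 of 13, and Phrf1 and Rassf7 under 9 of 14. Urah and Rnh1 kept it under 13 of 14 and lost it with only the most abundant transcript per gene. Leaving out any single library ended the call of Zfp941, except for Limch1_OE replicate 3, and that of Lmntd2, except for Limch1_OE replicate 1. The Bet1l call ended without Limch1_OE replicate 1, Limch1_OE replicate 3, Vector replicate 1 or Vector replicate 3. Without any single Vector library the Rassf7 call ended, and the Phrf1 call ended without Limch1_OE replicate 2, Vector replicate 1 or Vector replicate 3. The nearest tested gene on the far side of Ifitm3, B4galnt4, starts 50.3 kb away, and on the near side Ifitm2 and Gm45717 are followed by Pgghg (-0.22, limma adjusted p = 0.0722). Irf7, the interferon regulatory factor that amplifies interferon responses, starts 256 kb from Ifitm3, at the edge of the window. It was at 17.7 ± 1.75 FPKM in Limch1_OE, against 292 ± 18.7 FPKM in Vector (SD, n = 3 each), a log2 change of -3.97. Around Ifitm10, 6 of 23 genes were tested, and Lsp1 was the only one called (0.56). It was at 1.17, 1.9 and 1.55 FPKM in Limch1_OE, against 0.7, 0.58 and 0.87 FPKM in Vector, and so passed the filter only through the Limch1_OE libraries. A gene admitted in this way had to differ, and its call carries no weight of its own.

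**Figure D4:**
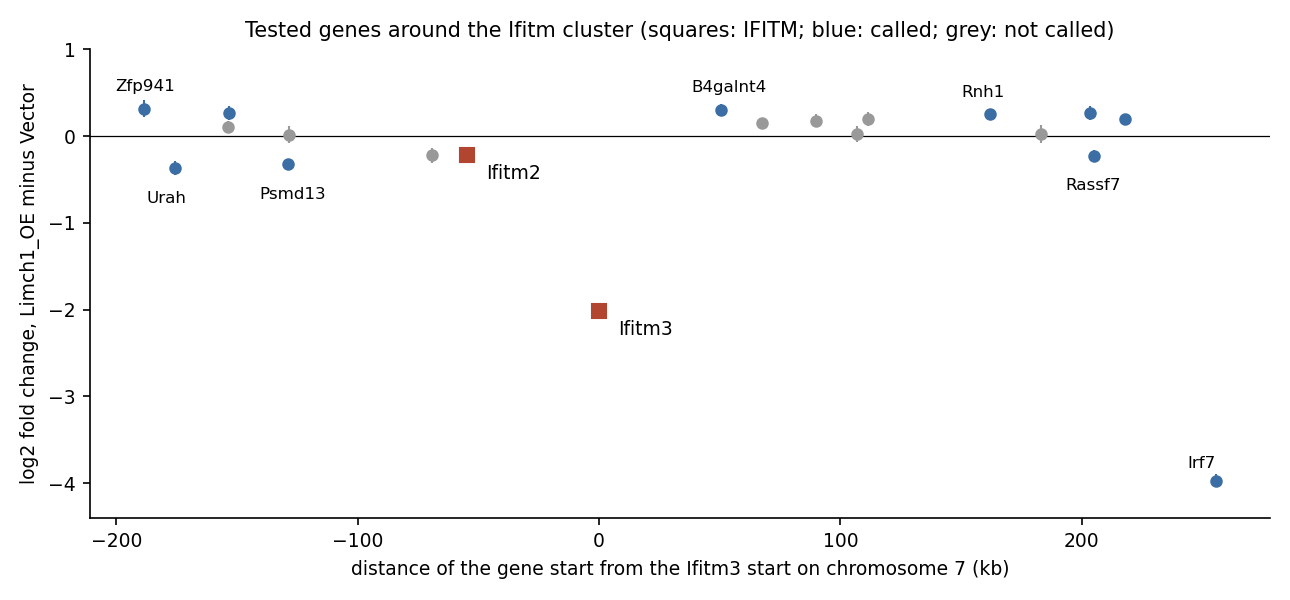
Log2 fold change with SE of each tested gene against the distance of its start from that of Ifitm3 in kb. Ifitm3 (-2.02) and Irf7 (-3.97) lie far below the other genes, which all stand between -0.37 and 0.32, and the point of Gm45717 (-0.21) is hidden behind that of Ifitm2.

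Partners and regulators of IFITM proteins, known mostly from human and mouse cell studies, formed a list of 30 genes. All 30 were tested, and 6 fell, 6 rose and 18 were not called, or 12 of 30 against 34.6% of all tested genes. Their median log2 change was 0.03, and the range from -0.36 to 0.40 was small beside the change of Ifitm3. With TMM scaling 3 partners, not 6, were called higher. NEDD4, the ubiquitin ligase that marks IFITM3 for lysosomal breakdown, had mRNA at 243 ± 11.9 FPKM in Limch1_OE, against 190 ± 4.39 FPKM in Vector (SD, n = 3 each), a log2 rise of 0.35. The Nedd4 call held under 13 of 14 alternatives and ended with only the most abundant transcript per gene. SETD7, a lysine methyltransferase that modifies IFITM3, changed by -0.18 in mRNA, a call that held under 8 of 14 alternatives and ended without any single library except Limch1_OE replicate 1. Of the palmitoyltransferase genes, Zdhhc1 rose by 0.30 and Zdhhc2 changed by -0.30. Zdhhc20, which encodes a main IFITM3 palmitoyltransferase, stood at 0.19 (limma adjusted p = 0.102).

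Among the membrane partners, the tetraspanin gene Cd9 fell by 0.36 on the log2 scale, and Ptgfrn, which encodes a partner of CD9 and CD81, changed by -0.21. Cd81 rose by 0.22 and Vapa, whose product takes part in cholesterol transfer and binds IFITM3, by 0.27. The call of Cd81 held under 9 of 14 alternatives, ending among others without Limch1_OE replicate 2 or Vector replicate 3, and that of Vapa under 6, ending among others without any single library except Vector replicate 1. The gene of the AP-2 beta subunit, Ap2b1, which serves the endocytosis of IFITM3, changed by -0.23. Among genes of gamma-secretase, the protease that IFITM3 binds in brain, Psen2 averaged 7.86 ± 0.603 FPKM in Limch1_OE, against 5.73 ± 0.278 FPKM in Vector (SD, n = 3 each), a log2 rise of 0.40. Fkbp11, which encodes a prolyl isomerase that binds IFITM5, rose by 0.25, a call that ended under 5 of 14 alternatives, among them without Limch1_OE replicate 3, Vector replicate 1 or Vector replicate 3. Aph1a, which encodes another gamma-secretase subunit, stood at -0.14 (limma adjusted p = 0.107).

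Other genes that act on virus entry formed a list of 14, of which 11 were tested, 5 fell, 1 rose and 5 were not called, or 6 of 11 called against 34.6% of all tested genes. The median log2 change of the tested genes was -0.02, against 0.04 over all tested genes. Of the 8 on this list grouped as interferon-induced, 6 were tested. Ly6e, Gbp2 and Gbp5 fell, 1 rose and 2 were not called, while 34.6% of all tested genes were called. The grouping itself was not tested. Ly6e, whose product inhibits coronavirus fusion, was at 57.4 ± 4.53 FPKM in Limch1_OE, against 929 ± 22.1 FPKM in Vector (SD, n = 3 each), a log2 change of -3.99. Gbp2 and Gbp5, which lower furin activity and so the maturation of viral envelope proteins in human cells, changed by -1.83 and -2.13. Gbp2 averaged 42.3 FPKM in Limch1_OE and 153 FPKM in Vector, and Gbp5 averaged 1.18 FPKM in Limch1_OE and 8.54 FPKM in Vector. The invariant chain gene Cd74, whose product blocks cathepsin-dependent entry, rose by 0.31. Ncoa7, whose interferon-induced form raises endosomal acidity, averaged 5.55 FPKM in Limch1_OE and 5.52 FPKM in Vector over all its listed transcripts, and that form was not examined apart. March8, which encodes a ligase that removes viral envelope proteins, stood at -0.02. Neither was called. Ch25h and March1 were below 1 FPKM in every library.

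Among the proteases that activate viral fusion proteins, changes were small beside that of Ifitm3. Ctsl, which encodes endosomal cathepsin L, changed by -0.22, and Furin by -0.21, a call that ended under 5 of 14 alternatives, among them without Vector replicate 1 or Vector replicate 2. Ctsb stood at 0.05 (limma adjusted p = 0.439), and the surface protease gene Tmprss2 was below 1 FPKM in every library. The virion-incorporated inhibitors Serinc3 and Serinc5 stood at 0.06 and 0.05 and were not called. A list of relatives with the CD225 domain held 11 names, of which Prrt1b and Tmem90b matched no annotated gene. The 4 analysed were Prrt2, Tmem265, Tmem91 and Trarg1. All 4 stayed below 1 FPKM in every library, and Tmem91 was the highest at 0.563 ± 0.169 FPKM in Limch1_OE, against 0.527 ± 0.346 FPKM in Vector (SD, n = 3 each).

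**Figure D5:**
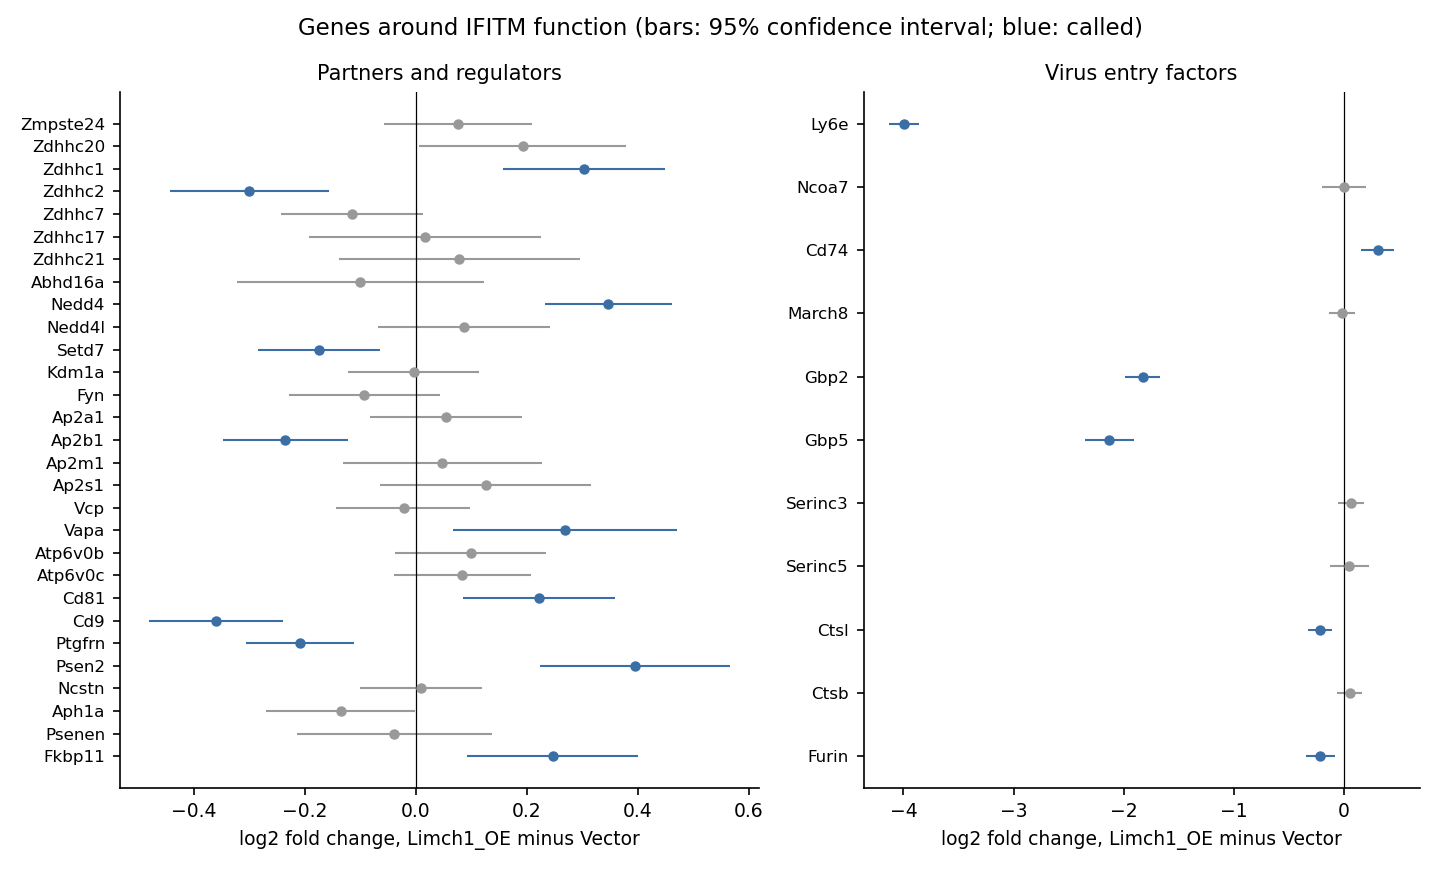
Log2 fold change (Limch1_OE minus Vector) with 95% confidence interval of 29 of the 30 tested partners and regulators of IFITM proteins (left) and each tested virus entry factor (right, on a wider axis), with called genes in blue. Partners stay between -0.36 and 0.40, whereas Ly6e (-3.99), Gbp5 (-2.13) and Gbp2 (-1.83) stand apart among the entry factors.

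Among 8806 genes averaging at least 5 FPKM, those with profiles nearest to Ifitm3 over the 6 libraries were the homeobox gene Rhox5, the peptide transporter gene Tap1 and the ADP-ribosyltransferase gene Parp11. Likeness was the root mean square difference of centred log2(FPKM + 1) values, which was 0.0384 for Rhox5, 0.0391 for Tap1 and 0.0527 for Parp11. Tap1 averaged 13.5 ± 0.926 FPKM in Limch1_OE and 59.7 ± 1.57 FPKM in Vector, a log2 change of -2.07. Rhox5 averaged 2.77 ± 0.3 FPKM in Limch1_OE, against 14.9 ± 0.997 FPKM in Vector (SD, n = 3 each), a change of -2.08. Nearest to Ifitm2 were Apobr (0.0239), Nagk (0.0246) and Mtfr2 (0.0294), with log2 changes of -0.20, -0.19 and -0.23. Apobr, which encodes a lipoprotein receptor, was called lower (limma adjusted p = 0.0435), and Nagk and Mtfr2 were not (0.0829 and 0.0611). All profiles share the 6 libraries and the difference between the groups.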

How the data were processed

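RNA was sequenced in 3 Limch1_OE and 3 Vector libraries, grouped by sample title, since the labels' line and genotype names count upwards from sample to sample. The authors deposited FPKM per transcript, to 2 decimals, for 77865 transcripts of 26094 genes. The submitters' processing notes list StringTie 2.2.1, featureCounts 2.0.1, STAR 2.7.10 and fastp 0.23.2 and build mm10, without roles. The sources used here do not give annotation release, strand use, multi-mapping or filters. Low values showed no whole-read steps (at most 27.6% of values within 0.1 of a whole read), so no count test was run.

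Listed transcripts were summed per gene. GENCODE M21 matched 26033 gene identifiers. The 11842 genes that reached 1 FPKM in 3 or more libraries were tested with limma 3.58.1 in R 4.3.3 on log2(FPKM + 1), with an intensity trend and Benjamini-Hochberg adjustment over all tested genes at 0.05. The script was tested on simulated data. This scale understates changes of low genes. Single values used two-sided exact permutation tests. Sequences came from RefSeq (GRCm38.p6) and GENCODE, aligned with Biopython 1.88. Alternatives changed the pseudocount, filter, scaling, summing, trend, replicate block or libraries. All members are named, with called list genes, at most 5 uncalled genes a list by smallest p, untested list genes only as such, and the 3 nearest profiles of each tested member averaging at least 5 FPKM. One gene of the partner list enters the counts and is not reported here by name. Members and lists were chosen with earlier results of these data known.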

Additional observations from a re-analysis of the deposited data

How the results depend on the processing

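The Ifitm3 log2 change lay between -2.08 and -1.96 over 14 alternatives, each past the threshold. The difference between the Ifitm3 and Ifitm2 changes lay between -1.87 and -1.76, the summed family difference between -567 and -526 FPKM, and no sign reversed. Ifitm2 kept its sign but not its call without a filter (-0.22), with quantile normalization (-0.17), with the most abundant transcript (-0.22, limma adjusted p = 0.0828) and without the trend (-0.22). Leaving out a library gave -0.28 to -0.17. Under these 4 settings 1 member was called lower rather than 2, and 1 or 2 without single libraries. Ifitm2 has 1 transcript, so under that setting its own values were unchanged.

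Over all tested genes the most abundant transcript gave 999 lower and 997 higher (main values 1706 and 2388). Leaving out a library gave 1207 to 1552 lower and 1578 to 2147 higher, the lowest higher counts coming without Limch1_OE replicate 2 (1578) and Vector replicate 1 (1590). With TMM scaling 57.7% of calls were lower, against 41.7%. Partners called higher were 3 with TMM scaling and with the most abundant transcript, and 3 to 7 without single libraries. Neighbours called lower were 3 without a filter, 2 with the most abundant transcript and 3 to 5 without single libraries. Neighbours called higher were 3 without a filter, 3 at 5 FPKM, 2 with TMM scaling, 1 with the most abundant transcript, 3 with the replicate block and 2 to 6 without single libraries. With the longer ISRE core 1 member matched. The causes were not tested.

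The replicate numbers gave no strong pairing of the samples. Correlations of deviations were -0.002, 0.046 and 0.059 for same-numbered libraries and -0.067 to 0.027 for differently numbered ones. The replicate block left both members called (limma adjusted p = 0.0173 for Ifitm2), with 1589 genes lower and 2219 higher in all. No member had several transcripts and 1 FPKM in every library, so no transcript shares were compared. Without depth, values near 0 FPKM carry no counting interval.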
